A study of Mus musculus with 16 samples.

Results

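The oxysterol receptor GPR183 and 6 genes of oxysterol synthesis, oxysterol breakdown or lipid transfer were followed in bone marrow-derived macrophages (BMMs). The cells were activated in the presence or absence of a γ-secretase inhibitor (GSI). The 7 genes, Gpr183, Ch25h, Cyp7b1, Cyp27a1, Hsd3b7, Osbp and Osbpl8, were taken by symbol from a table of 47069 genes. They were chosen by the fall of Gpr183 between the same libraries that are described here, so their values are given as a description, without a test. BMMs were grown from the bone marrow of C57BL/6 mice aged 8 to 10 weeks in L929-conditioned medium and collected on day 7. All cells were primed overnight with 10 ng/mL IFNγ and then activated with 100 ng/mL Salmonella lipopolysaccharide plus immune complexes of ovalbumin and rabbit IgG (LPS/ICs). One group received 25 µM DAPT, the GSI, and the other 0.01% DMSO, its vehicle, and RNA was taken after 1 hr of activation. There were 2 replicates per group and no unstimulated group, so the levels are those of activated cells with or without GSI. The sources do not say whether replicates were separate mice or cultures, and p-values therefore measure only the spread between these libraries.

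Oxysterols are oxidized forms of cholesterol that act as lipid signals. CH25H adds a hydroxyl group to carbon 25 of cholesterol, CYP7B1 adds another at the 7α position, and the resulting dihydroxycholesterol binds GPR183 (also called EBI2), a Gαi-coupled receptor that guides the migration of B cells, dendritic cells and macrophages. HSD3B7 converts this ligand into a form that no longer attracts cells, while CYP27A1 makes the 27-hydroxy oxysterols. OSBP binds cholesterol and 25-hydroxycholesterol and exchanges sterol for phosphatidylinositol 4-phosphate at membrane contact sites, and its relative encoded by Osbpl8 moves phospholipids between the endoplasmic reticulum and the plasma membrane. GSI prevents the cleavage that releases the Notch intracellular domain, the partner of the DNA-binding protein RBPJ.

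The promoters of the receptor gene and of the 25-hydroxylase gene are shown because these genes stand at both ends of the ligand pathway and carried a match to the core letters of the RBPJ motif. The 250 bases before the RefSeq start (GRCm38.p6) are written 5′ to 3′ on the strand of the gene, and the capitals mark TGGGAA or its reverse complement. The Gpr183 window was chr14:121965194-121965443 (minus strand) and the Ch25h window chr19:34475149-34475398 (minus strand).
Gpr183: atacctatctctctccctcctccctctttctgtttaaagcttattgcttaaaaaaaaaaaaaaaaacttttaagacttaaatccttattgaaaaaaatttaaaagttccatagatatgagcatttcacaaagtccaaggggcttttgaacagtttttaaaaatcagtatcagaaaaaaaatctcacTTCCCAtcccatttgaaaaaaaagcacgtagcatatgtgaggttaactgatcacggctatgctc
Ch25h: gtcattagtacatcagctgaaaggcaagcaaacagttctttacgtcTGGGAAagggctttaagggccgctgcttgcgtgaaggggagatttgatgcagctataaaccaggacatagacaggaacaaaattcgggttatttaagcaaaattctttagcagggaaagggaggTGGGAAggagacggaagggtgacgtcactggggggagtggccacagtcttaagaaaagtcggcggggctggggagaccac
Gpr183 had 1 match, on the opposite strand, 64 to 59 bases before the start. Ch25h had 2 matches, at 204 to 199 and at 80 to 75 bases before the start. The same letters occurred on either strand in 21.6% of the 32841 promoters of this length, so a match is common and does not show a binding site. The Gpr183 window was rich in A and T, with a GC content of 32.0% against 50.4% for Ch25h and a median of 52.4% over all promoters. RefSeq promoters were found for 6 of the 7 genes, all but Cyp7b1. Windows of Hsd3b7, Cyp27a1, Osbp and Osbpl8 held none of the 5 motifs searched on both strands, which were the RBPJ core, AP-1 (TGANTCA, in 6.75% of promoters), the interferon-stimulated response element core (GAAANNGAA, 7.13%), NF-κB (GGANTTTCC, 1.07%) and the sterol regulatory element (TCACNCCAC, 1.05%). Gpr183 and Ch25h held none of the other 4 motifs.

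Library totals ran from 42694655 to 56932059 counts, each the sum of 4 columns, taken as sequencing runs because the labels do not define them, that differed by no more than about the sampling noise (chi-square per degree of freedom 1.01 to 1.03, against 14.7 and 16.6 between replicates). Levels are given as CPM, the count per 1000000 counts of a library after TMM scaling, which evens out differences in composition between libraries. The floor of 3 counts was 0.0529 to 0.0697 CPM, and it covers counting error only. Of the 13211 genes with enough counts to test, 40.8% had a false discovery rate (FDR) under 0.05 in the quasi-likelihood test of edgeR, adjusted by Benjamini-Hochberg, with 21.9% lower and 19% higher in the GSI libraries. The median log2 fold change was 0.01. The Notch targets Hes1 and Hey1 had at most 5 counts in any library and were not tested, so they gave no check of the inhibitor. All 8 macrophage markers were present in every library, and their summed level was 12278 and 12484 CPM with DMSO and 9489 and 10414 CPM with GSI.

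Gpr183 mRNA was lower in both GSI libraries. Its level was 6.00 and 6.36 CPM in DMSO replicates 1 and 2, and 0.910 and 1.19 CPM in GSI replicates 1 and 2. The lowest DMSO library was thus far above the highest GSI library, and the groups did not overlap. The means were 6.18 ± 0.259 CPM with DMSO and 1.05 ± 0.201 CPM with GSI (SD, n = 2 each), a log2 fold change of -2.55 (SE 0.167), or 5.86-fold lower. These levels rested on 258 and 361 counts against 44 and 59 counts, and single runs held 56 to 101 counts with DMSO and 8 to 23 with GSI. No run of one group reached the range of the other. Among all 13211 genes, 2.17% had an FDR under 0.05 together with a fall of more than 1.5 on the log2 scale. Gpr183 was chosen for its fall in these libraries, so nothing is read from its place among all genes. Leaving out single libraries gave log2 fold changes from -2.76 to -2.37, and the other settings gave -2.56 to -2.54. In RNA from whole cultures, fewer cells expressing a gene and less RNA per cell cannot be told apart.

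**Figure D1:**
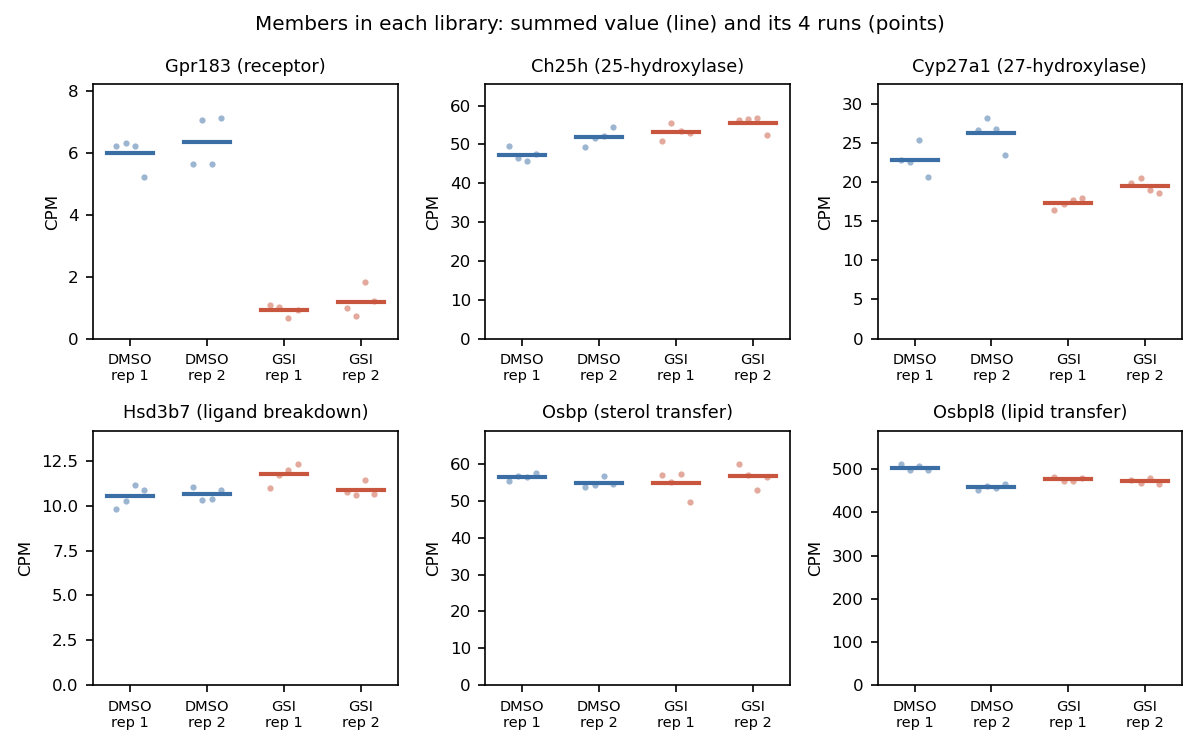
Level of the 6 detected genes in each library, in CPM on linear axes from 0; lines are the summed libraries, points their 4 runs, blue DMSO and red GSI. The GSI libraries lie at 0.910 and 1.19 CPM for Gpr183 against 6.00 and 6.36 CPM with DMSO, Cyp27a1 is lower in both GSI libraries, and the 4 lines of Osbp lie between 54.8 and 56.6 CPM.

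B cells and dendritic cells also express Gpr183, and their markers were read in the same libraries. Of 8 B cell markers, Blk was at 0 in all libraries, and Cd79a, Ms4a1, Pax5 and Cr2 were at 0.0621 CPM or less. The summed B cell level was 10.7 and 10.4 CPM with DMSO and 3.68 and 3.38 CPM with GSI, most of it Ighm, which encodes the IgM heavy chain and fell by 1.70 on the log2 scale (FDR 8.00e-10). The other tested B cell marker, Cd79b, was at 0.511 and 0.370 CPM with DMSO and 0.414 and 0.263 CPM with GSI and did not pass (FDR 0.487). Of 8 dendritic cell markers, 5 were tested, 3 were lower and 1 higher (80% called, against 40.8% of all genes), and the sum was 222 and 215 CPM with DMSO and 134 and 136 CPM with GSI. Clec9a, a receptor for dead cells, made up most of this sum at 181 and 174 CPM against 109 and 111 CPM, while Itgax, the gene of CD11c, fell from 35.2 and 35.3 to 19.9 and 20.8 CPM (FDR 1.03e-07). Xcr1, a chemokine receptor, fell by 0.42 and Kit rose by 0.83 on the log2 scale (FDR 0.0175 and 0.0233). Zbtb46, the tested marker that did not pass (FDR 0.477), was at 0.232 and 0.335 CPM with DMSO and 0.228 and 0.202 CPM with GSI. The dendritic cell markers Siglech and Cd209a were at 0 and Flt3 was at most 0.0414 CPM. T and NK cell markers summed to at most 1.74 CPM with DMSO and to 2.83 and 3.79 CPM with GSI, with 1 of 2 tested markers (Lck) higher. Neutrophil markers summed to 0.697 to 1.43 CPM, and the tested S100a8 and S100a9 had an FDR of 0.240 and 0.965. Fibroblast and stroma markers summed to at most 0.302 CPM, and none was tested. Of the 8 macrophage markers, 6 were lower, Mertk was higher and Cd68 was not called (87.5% called, against 40.8% of all genes). The part of these shifts in the fall of Gpr183, and in the other changes given here, was not tested.

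Gpr183 (ENSMUSG00000051212) lies at chr14:121952551-121965195 on the minus strand of GRCm38, where GENCODE M21 gives it 2 transcripts and 2887 exon bases. It sits within the span of Ubac2, a gene of the plus strand, but shares 0 exon bases with any gene on either strand. Ubac2 was at 33.6 and 35.7 CPM with DMSO and 35.1 and 39.8 CPM with GSI, with a log2 fold change of 0.11 (SE 0.0809, FDR 0.287). The host gene thus did not pass the test, and its groups overlapped. Gpr18, which encodes another lipid-sensing receptor, is the next gene at lower coordinates and is transcribed from the same strand. It fell from 13.5 and 13.6 CPM to 11.3 and 10.2 CPM (log2 fold change -0.34, SE 0.0962, FDR 0.00821). Timm8a2, the nearest gene on the other side, had at most 1 count per library.

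Ch25h, the enzyme of the first step toward the GPR183 ligand, was well expressed in every library. It measured 47.4 and 52.0 CPM with DMSO and 53.2 and 55.5 CPM with GSI. The groups did not overlap, but the higher DMSO library and the lower GSI library were closer to each other than the 2 DMSO libraries were. Means were 49.7 ± 3.27 and 54.4 ± 1.61 CPM (SD, n = 2 each), and the log2 fold change was 0.13 (SE 0.0751), or 0.06 without DMSO replicate 1 and 0.20 without DMSO replicate 2. Ch25h (ENSMUSG00000050370) is a single exon of 1387 bases at chr19:34473778-34475164 on the minus strand, and 159 of these bases lie opposite an exon of Gm26902. This noncoding gene was at 3.49 to 4.16 CPM, with a log2 fold change of 0.00 (FDR 0.982). The strand setting of the counting was not stated, so reads of these 159 bases cannot be assigned with certainty. Lipa, the gene of lysosomal acid lipase and the nearest measured neighbour, did not pass the test (log2 fold change -0.08, FDR 0.437).

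Cyp7b1, the 7α-hydroxylase of the second step, had 0 counts in all 4 libraries, which allows a level of up to 0.0697 CPM in the smallest. The gene (ENSMUSG00000039519, chr3:18071950-18243338, minus strand) has 2166 exon bases and no exon of another gene overlapping them. Its mRNA was not detected at this depth in either group, and no comparison was possible. The first enzyme of the ligand pathway and the receptor were therefore both measured, whereas the enzyme between them was below the floor.

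Cyp27a1, the mitochondrial sterol 27-hydroxylase, was lower with GSI in both libraries. Its level was 22.9 and 26.3 CPM with DMSO and 17.4 and 19.5 CPM with GSI. The groups did not overlap, and the gap between them was about as wide as the spread within DMSO. Means were 24.6 ± 2.42 and 18.4 ± 1.502 CPM (SD, n = 2 each), and the log2 fold change was -0.42 (SE 0.0916), or 1.34-fold lower. With single libraries left out it ranged from -0.52 to -0.32. The gene (ENSMUSG00000026170) spans chr1:74713574-74737892 on the plus strand, with 2173 exon bases that no other gene overlaps. Its measured neighbour Ttll4 did not pass the test (log2 fold change -0.12, FDR 0.401).

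Hsd3b7, which inactivates the GPR183 ligand, was at 10.6 and 10.7 CPM with DMSO and 11.8 and 10.9 CPM with GSI. The GSI libraries were both above the DMSO libraries, by a small margin. The log2 fold change was 0.09 (SE 0.0977), or 0.04 without GSI replicate 1 and 0.15 without GSI replicate 2. This level is uncertain, since the gene (ENSMUSG00000042289, chr7:127800604-127803802, plus strand) shares 1717 of its 2769 exon bases with the read-through gene Gm49388, listed at 0 counts, and 1729 with 9430064I24Rik on the other strand. The antisense gene 9430064I24Rik was at 0.511 and 0.546 CPM with DMSO and 0.0414 and 0 CPM with GSI (22, 31, 2 and 0 counts; FDR 0.000020). This was far below the level of Hsd3b7, and reads of the overlap cannot be told apart without a stated strand setting. Its neighbour Setd1a did not pass the test (log2 fold change -0.03, FDR 0.823).

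Osbp, the oxysterol-binding protein, was at 56.5 and 54.9 CPM with DMSO and 54.8 and 56.6 CPM with GSI. The groups overlapped fully, and the log2 fold change was 0.00 (SE 0.0718). Osbpl8 was the most abundant of the 7 mRNAs, at 504 and 459 CPM with DMSO and 477 and 472 CPM with GSI. Both GSI libraries lay between the DMSO libraries, and the log2 fold change was -0.02 (SE 0.0733). For both genes the sign changed when single libraries were left out, within -0.02 to 0.02 for Osbp and -0.09 to 0.05 for Osbpl8. Osbp (ENSMUSG00000024687) lies at chr19:11965941-11994112 and Osbpl8 (ENSMUSG00000020189) at chr10:111164752-111297249, both on the plus strand and without exons of other genes over their own. Their measured neighbours Patl1 (log2 fold change -0.12, FDR 0.208) and Bbs10 (0.08, FDR 0.774) did not pass the test.

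Of the 6 genes with enough counts, 2 were lower without overlap (Gpr183 and Cyp27a1), 2 were higher without overlap (Ch25h and Hsd3b7) and 2 overlapped. Among all tested genes, 34.8% were lower and 35.8% higher without overlap. No FDR is given for these genes, because they were chosen from this contrast. On the RPKM scale (CPM divided by exon length in units of 1000 bases), which allows levels of different genes to be compared, the order was Osbpl8 (48.8 to 53.6 over the 4 libraries), Ch25h (34.2 to 40.03), Osbp (12.2 to 12.6), Cyp27a1 (8.00 to 12.1), Hsd3b7 (3.81 to 4.25), Gpr183 (0.315 to 2.204) and Cyp7b1 (0). The ranges of neighbours in this order did not overlap, but the place of Hsd3b7 is uncertain. Of its 2769 exon bases, 1717 are shared with Gm49388 and 1729 lie opposite 9430064I24Rik. Osbp and Cyp27a1 came closest, with DMSO replicate 2 at 12.2 and 12.1 RPKM.

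Gpr183 was then set beside 30 other G protein-coupled receptors for lipid ligands. Its mean level of 2.14 RPKM with DMSO ranked 12 among the 31 receptors, next to the leukotriene receptor gene Cysltr2 with 2.14 RPKM, from which it could not be separated. With GSI it ranked 18 at 0.365 RPKM, while Cysltr2 was at 1.98 RPKM. Gpr183 was chosen for its fall, so nothing is read from this change of rank. Of the 23 other receptors tested, 6 were lower and 5 higher with GSI. These were 47.8% of the receptors, close to the 40.8% of all genes, and the median log2 fold change was -0.13. Fpr2, a formyl peptide and lipoxin receptor, rose from 5.69 and 4.99 CPM to 13.5 and 14.8 CPM (log2 fold change 1.41, FDR 3.19e-09). The lysophosphatidic acid receptor gene Lpar1 rose from 14.3 and 14.0 CPM to 24.9 and 24.7 CPM (log2 fold change 0.81, FDR 1.84e-07). Gpr55, a lysophosphatidylinositol receptor, rose from 0.442 and 0.353 CPM to 1.53 and 1.64 CPM (log2 fold change 2.01, FDR 4.46e-06), but 71 of its exon bases lie opposite another gene. Lower receptors included Cmklr1, with the largest fall of those called (log2 fold change -0.72, FDR 0.0140), Lpar6 (-0.52), Cysltr1 (-0.50) and S1pr1 (-0.44). The lowest fold change among the 23 was that of P2ry10 (log2 fold change -1.20, FDR 0.0818).

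The machinery behind a Gαi-coupled receptor was measured with 16 of 18 listed genes, of which 7 were lower, 1 was higher and 8 did not pass (50% called, against 40.8% of all genes; median log2 fold change -0.20). Arrb2, which encodes a β-arrestin that uncouples and internalizes receptors, fell from 180 and 194 CPM to 141 and 134 CPM (log2 fold change -0.44, FDR 4.31e-05). Grk6, a receptor kinase, fell by 0.42 and Rgs18, which speeds the inactivation of Gα subunits, fell by 0.67 on the log2 scale (FDR 0.000594 and 0.000331). Gnai2, the most abundant Gαi subunit gene of the list, was at 780 and 822 CPM with DMSO. With GSI it was at 720 and 682 CPM (FDR 0.0415), while Gnai3 did not pass (FDR 0.0662). The 1 gene called higher was Rgs1, at 1143 and 1190 CPM with DMSO and 1379 and 1384 CPM with GSI (FDR 0.0109). The number called was 5 instead of 8 without DMSO replicate 1.

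**Figure D2:**
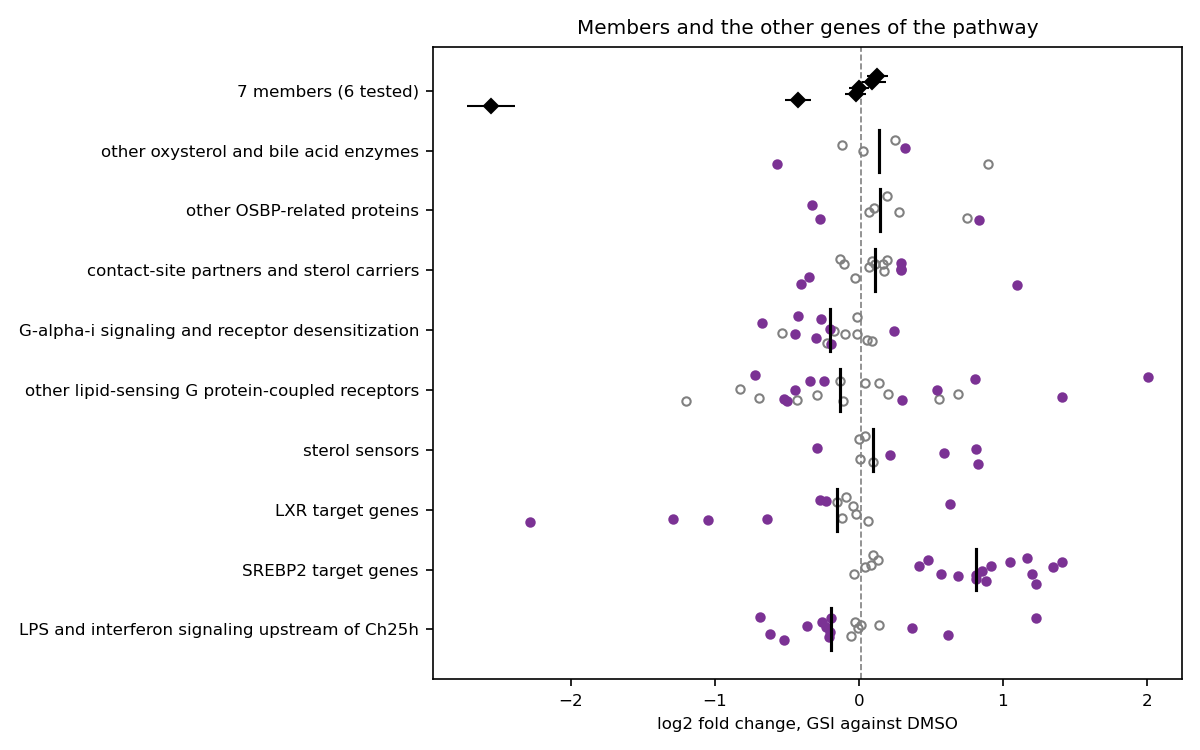
Log2 fold change with GSI for 6 of the 7 chosen genes (black diamonds, bars 1 SE) and for the tested genes of 9 related lists. List genes are circles, filled purple at FDR under 0.05. Vertical bars are list medians, and the dashed line is the median of all genes. Gpr183, chosen for its fall, lies at -2.55, the other 5 lie between -0.42 and 0.13, and the SREBP2 targets have a median of 0.81.

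The other enzymes of oxysterol and bile acid synthesis were partly undetected, and 6 of 16 were at 0 in every library, among them Cyp7a1, the rate-limiting enzyme of bile acid synthesis. Of the 6 tested, 1 was lower and 1 higher (33.3% called, below the 40.8% of all genes). Hsd17b4, a peroxisomal enzyme of side chain shortening, fell from 104 and 108 CPM to 70.4 and 73.6 CPM (log2 fold change -0.56, FDR 2.02e-06). Acot8, a peroxisomal thioesterase, was at 8.16 and 9.55 CPM with DMSO and 10.1 and 12.1 CPM with GSI (log2 fold change 0.32, FDR 0.0276). The call of Acot8, with 246 exon bases opposite another gene, was lost with DESeq2 (adjusted p = 0.124), without DMSO replicate 1 (edgeR FDR 0.219) and without GSI replicate 2 (log2 fold change 0.19, FDR 0.248), leaving 1 of 2 calls. Cyp46a1 and Cyp39a1, other oxysterol enzymes, were at most 0.0232 CPM and between 0.776 and 1.26 CPM, respectively.

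Among the OSBP-related proteins, Osbpl8 and Osbp together with Osbpl9 supplied most of the mRNA per length. Osbpl8 made up 49.1% of the summed RPKM of the 12 family members with DMSO and 50.8% with GSI, and Osbp 11.9% and 12.5%. Osbpl9 was the other abundant member, at 22.7% and 19.0%. Of the 8 other members tested, 2 were lower, 1 was higher and 5 did not pass (37.5% called, close to the 40.8% of all genes), with a median log2 fold change of 0.15. Osbpl9 fell from 168 and 163 CPM to 133 and 131 CPM (log2 fold change -0.33, FDR 0.000734), with 633 exon bases opposite another gene. Osbpl11 fell by 0.27 on the log2 scale (FDR 0.0231), and Osbp2 rose by 0.84 at 18 to 39 counts per library (FDR 0.0470). Both of these calls were lost with DESeq2 (adjusted p = 0.0704 and 0.309) and without GSI replicate 2, when 1 of the 3 calls of the list was left. Without DMSO replicate 1 the log2 fold change of Osbpl11 was -0.14 (FDR 0.349) and that of Osbp2 was 1.29. Osbp2 was at 0.42 (FDR 0.465) without DMSO replicate 2, and its call was also lost without GSI replicate 1 (FDR 0.131).

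**Figure D3:**
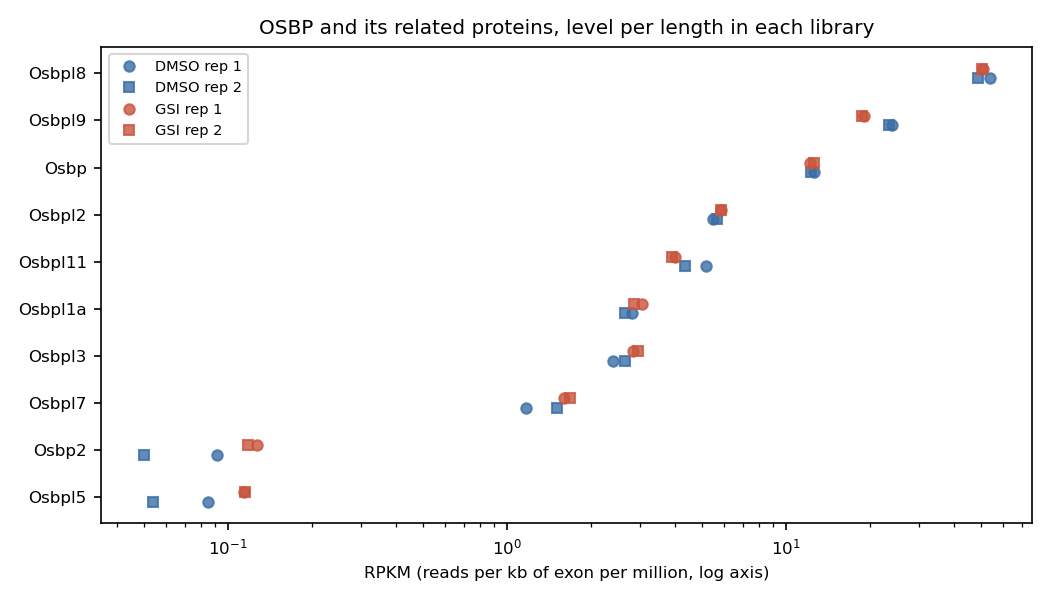
Level per length (RPKM, log axis) of OSBP and the 9 related proteins with enough counts to test, in each library; blue DMSO, red GSI, circles replicate 1, squares replicate 2. Osbpl8 lies highest at 48.8 to 53.6 RPKM, Osbp follows Osbpl9 with its 4 libraries at 12.2 to 12.6 RPKM, and Osbpl9 is lower in both GSI libraries.

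OSBP works at contact sites with VAP proteins and with enzymes that make or remove phosphatidylinositol 4-phosphate, and 15 genes for these partners and for other sterol carriers were all tested. With GSI 2 were lower, 4 higher and 9 did not pass (40% called, as among all genes; median log2 fold change 0.11). Stard4, a cytosolic sterol carrier, rose from 9.65 and 9.62 CPM to 20.0 and 21.2 CPM (log2 fold change 1.10, FDR 8.02e-09). Gramd1a and Gramd1b, which carry cholesterol from the plasma membrane to the endoplasmic reticulum, fell by 0.40 and 0.35 on the log2 scale (FDR 0.000222 and 0.000497), with 423 and 198 exon bases opposite another gene. The VAP gene Vapb rose by 0.29 and Vapa had a log2 fold change of 0.17 (FDR 0.0585).

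Oxysterols also bind the nuclear receptors LXR and the INSIG proteins that hold back SREBP2, the activator of cholesterol synthesis genes. The target genes of both routes were counted in the libraries. Of 20 tested SREBP2 targets, 15 were higher and 5 did not pass, and 19% of all genes were higher (median log2 fold change 0.81, against 0.01 for all genes). Mvd, an enzyme of the mevalonate pathway, rose from 2.93 and 3.75 CPM to 9.16 and 8.81 CPM (log2 fold change 1.41, FDR 3.45e-08). Idi1, which isomerizes an isoprenoid precursor of sterols, rose by 1.35 on the log2 scale (FDR 2.38e-06), with 323 exon bases opposite another gene. Restricted to genes without such overlap, 9 of 14 SREBP2 targets were higher.

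Among the 13 LXR targets tested, 6 were lower, 1 was higher and 6 did not pass (53.8% called, against 40.8% of all genes; median log2 fold change -0.15). Abca1, the cholesterol exporter, fell from 93.1 and 86.4 CPM to 16.8 and 20.0 CPM (log2 fold change -2.28, FDR 1.53e-13). Scd2, a fatty acid desaturase, fell by 1.29 and Lpl, lipoprotein lipase, by 1.04 on the log2 scale (FDR 6.53e-09 and 2.31e-09). Of the 9 sterol sensors tested, 4 were higher and 1 lower (55.6% called; median log2 fold change 0.10). Nr1h3, the gene of LXRα, rose from 31.8 and 30.1 CPM to 54.4 and 55.2 CPM (log2 fold change 0.83, FDR 2.54e-08). Insig1 rose by 0.81 and Srebf2, which encodes SREBP2, by 0.59 (FDR 1.42e-08 and 3.27e-06). The sterol sensors called were 3 instead of 5 without DMSO replicate 2.

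Ch25h is induced by LPS and by interferons, and the 17 listed genes of these routes were all tested. Of these, 9 were lower, 3 higher and 5 did not pass (70.6% called, against 40.8% of all genes; median log2 fold change -0.19). The lower genes were 5 instead of 9 without DMSO replicate 1, without DMSO replicate 2 or without GSI replicate 1. Ifnb1, the gene of interferon β, rose from 10.2 and 13.1 CPM to 27.1 and 27.9 CPM (log2 fold change 1.23, FDR 7.51e-09), and Irf7, which drives interferon genes, rose by 0.62 (FDR 9.62e-07), with 45 exon bases opposite another gene. Ticam1, the adaptor TRIF that links TLR4 to interferon induction, fell from 67.7 and 70.5 CPM to 44.5 and 41.6 CPM (log2 fold change -0.68, FDR 3.01e-07). Ch25h itself had a log2 fold change of 0.13.

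The genes whose profile over the 4 libraries was most like that of Gpr183 were found by the root mean square distance between centred log2 CPM values, among 10956 genes averaging at least 1 CPM. The nearest was Abca1 at a distance of 0.142, followed by Fosb, a subunit of the transcription factor AP-1, at 0.156, and Thbs1, which encodes thrombospondin 1, at 0.160. Nr4a3, an orphan nuclear receptor, followed at 0.165 and Kcna3, a voltage-gated potassium channel, at 0.180. Fosb went from 134 and 145 CPM to 27.1 and 33.0 CPM, and Kcna3, the one closest in level to Gpr183, from 10.3 and 12.1 CPM to 2.21 and 2.17 CPM. All 5 were lower in both GSI libraries, with log2 fold changes of -2.62 to -2.21, as the measure of likeness requires. Thbs1 has 208 exon bases opposite another gene, and 4 libraries in 2 groups allow no finer distinction between such profiles.

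**Figure D4:**
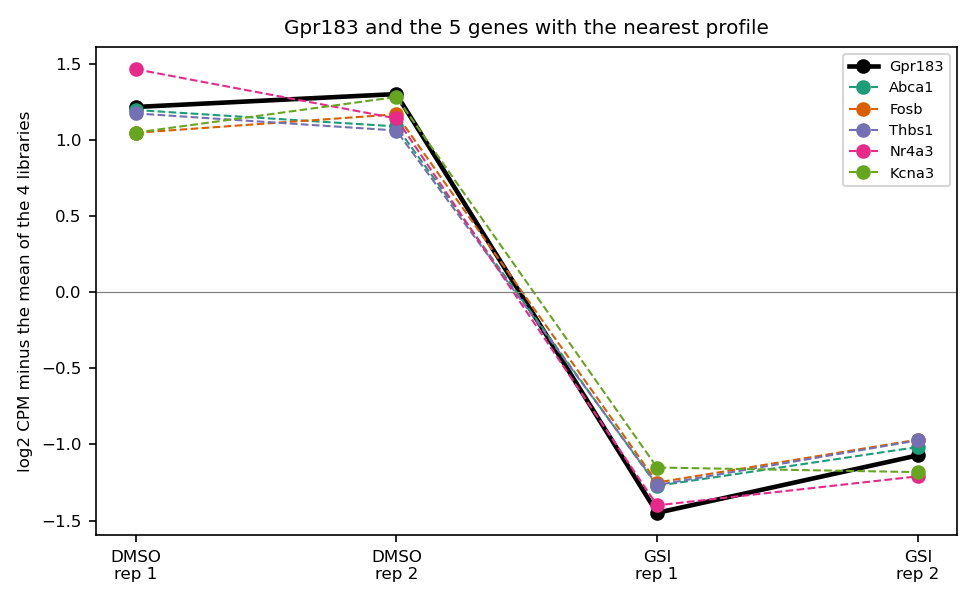
Log2 CPM minus its mean over the 4 libraries for Gpr183 (black) and the 5 genes with the nearest profile (coloured, dashed); the libraries are on the horizontal axis and lines only join values of 1 gene. All 6 genes lie above 0 in both DMSO libraries and below 0 in both GSI libraries, with Abca1 at a distance of 0.142 from Gpr183.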

How the data were processed

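Poly(A) RNA of LPS/IC-activated BMMs was sequenced by the authors from strand-specific libraries, aligned with STAR (version 2.5.0a in the submitters' processing notes) to mm10, per the methods (the notes name both mm9 and mm10), and assigned to genes with HTSeq. The deposited columns hold unnormalized counts, 4 columns per replicate. The HTSeq version, mode and strand setting are not given in the sources used here. The methods give overnight treatment with GSI, and legends of other experiments a shorter one.

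The 16 columns, taken as runs, were summed to 4 libraries. edgeR 4.0.16 (R 4.3.3) was run with filterByExpr, TMM normalization and the quasi-likelihood test over 13211 genes, with Benjamini-Hochberg adjustment. CPM used TMM-adjusted sizes, and RPKM the merged exon length of GENCODE M21 (GRCm38), which held 46574 of the 47069 gene IDs. Scripts were tested on simulated data. Promoters came from RefSeq.

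Members, lists and tests were chosen with earlier results of these data known. Besides the members, the text names the 3 tested genes with the largest change at FDR under 0.05 in each pathway list, the 5 nearest profiles, neighbouring genes, Hes1 and Hey1. Some genes that this rule gives are not reported here. Gnai2, Gnai3, Rgs1, Vapa, Vapb, Cyp7a1, Cyp46a1, Cyp39a1, Cmklr1, Cysltr1, Cysltr2, Lpar6, P2ry10, S1pr1 and the markers were named after their values were seen. Alternatives were DESeq2 1.42.0, other normalizations and filters, a replicate block, 16 separate runs and leaving out each library.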

Additional observations from a re-analysis of the deposited data

How the results depend on the processing

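Under every alternative run Gpr183 was lower, at log2 fold changes of -2.76 to -2.37. Osbp and Osbpl8, with log2 fold changes near 0, changed sign under some alternatives, with Osbp at -0.0037 with DESeq2 and Osbpl8 at 0.0464 without DMSO replicate 1, both within 1 SE of 0. Of 303 values for 26 named list genes, 292 kept direction and call, none reversed, and the 11 that lost the call belonged to Acot8, Osbp2 and Osbpl11. With the 16 runs as separate samples, 3896 genes were higher, 127 genes were lower past both thresholds and 11 contact-site genes were called. With at least 10 counts in every library, 101 genes were lower past both thresholds. With DESeq2, 1 oxysterol enzyme and 1 OSBP-related protein were called. Restricted to genes without exons on the other strand, an alternative chosen after seeing the data that tests fewer genes, 1908 genes were lower, 1663 higher and 103 lower past both thresholds, and 1 oxysterol enzyme, 1 OSBP-related protein and 9 SREBP2 targets were called. Leaving out single libraries gave 1 to 2 oxysterol enzymes, 1 to 4 OSBP-related proteins, 5 to 8 Gαi signaling genes, 3 to 4 sterol sensors, 5 to 7 LXR targets and 8 to 10 LPS and interferon genes, where the lone library of a group was assumed to vary like the other group. Other causes of these shifts were not tested. With the replicate block, 5 OSBP-related proteins were called instead of 3. The numbers were not shown to pair the samples (correlation of deviations 0.155 over 13211 genes, 2 pairs). Cyp7b1, Hes1 and Hey1 were at or near 0, and at this depth no difference could be measured in them.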
